A study of Ovis aries with 9 samples.

Results

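Immediate-early genes are the first genes that a cell transcribes after a stimulus, and 10 of them were examined here in the hypothalamus of Dolang ewes around puberty: FOS, FOSB, JUNB, EGR1, ARC, NR4A1, NPAS4, DUSP1, IER2 and BTG2. They were taken by symbol from the 21284 genes that had at least 1 RefSeq coding transcript in the expression data, and the values of all coding transcripts of a gene were summed. The samples were 9 Dolang ewes (domestic sheep), each with 1 RNA library: the 3 prepubertal ewes were 120 days old, the 3 pubertal ewes 130 days and the 3 postpubertal ewes 150 days. The stage of each ewe was read from its response to a ram together with external signs of oestrus, puberty being the first time that it stood for the ram. All ewes received an overdose of pentobarbital before the hypothalamus was dissected and frozen, the labels name no treatment, and age and stage cannot be told apart in this design. Clock time and the interval from handling to freezing were not used here.

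In neurons, calcium and cyclic AMP activate kinases that phosphorylate CREB, SRF and their partners, which are already bound at the promoters of these genes, so that transcription starts within minutes and needs no new protein. The products are transcription factors, a synaptic protein and proteins that end the signal, and most of these RNAs decay quickly. In the hypothalamus such genes serve as markers of recently active neurons, FOS above all, although glia and vessel cells also induce most of them.

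The values were FPKM, the fragments of a transcript per unit of its length and of sequencing depth, so levels of different genes can be compared per unit of length. The 8 libraries other than Puberty 2 had a summed FPKM of 359588 to 398109 and 17180 to 17763 genes above 0. Puberty 2 stood apart, with a sum of 599726, 15577 genes above 0 and 32 genes listed at 0 that reached at least 10 FPKM in every other library, against 0 such genes in each of the others. Results are therefore given with and without Puberty 2. The tissue label was checked against 19 genes of hypothalamic neurons, whose summed level was 31.6 to 168 FPKM in the 8 libraries and 62.5 in Puberty 2; GNRH1, the gene of the releasing hormone that drives puberty, and FEZF1 were listed at 0 in all 9 libraries, and AGRP, GHRH, SIM1 and OTP were also listed at 0 in Puberty 2. Summed markers of neurons were 664 FPKM in Prepuberty 1, 477 in Postpuberty 1 and 346 in Puberty 2, against 1225 to 1844 in the other 6 libraries, and markers of choroid plexus and ependyma reached 7706 in Puberty 3, against at most 874 elsewhere. Markers of the pituitary, the gland below the hypothalamus, summed to 216 FPKM in Postpuberty 1, against 0.246 to 89.7 in the other libraries. Postpuberty 1 also had the lowest sum of hypothalamic neuron markers (31.6), but SST weighed heavily in some of these sums. It held 107 of the 168 FPKM in Postpuberty 3 and 4.27 of the 31.6 in Postpuberty 1. By the mean z score of log2(FPKM + 1), which weights the markers equally, Prepuberty 1 was lowest (-0.43) and Postpuberty 1 was at -0.014. Markers of other brain regions were at 64.1 FPKM in Puberty 3 and at 6.02 to 36.4 elsewhere. Their part in the results was not tested. In bulk tissue, fewer cells of a type and less RNA per cell cannot be told apart.

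The levels of the members formed 3 tiers. DUSP1 had the highest mean over the 9 libraries (14.9 FPKM), followed by JUNB (9.71), FOS (8.34), EGR1 (7.45), NR4A1 (5.48) and BTG2 (4.53). FOSB (1.06) and ARC (0.926) were near 1 FPKM, as was IER2 (1.15) through Puberty 2 alone, without which its mean was 0.276, and NPAS4 (0.166) was lowest. Neighbours in this order overlapped across libraries. NPAS4 stayed below the 0.5 FPKM in at least 1 stage mean that a gene needed to be tested, and IER2 passed that filter only through Puberty 1 and Puberty 2, so 9 members entered the test. The 8 of these other than IER2 were above 0 in every library and are called the 8 tested members below.

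**Figure D1:**
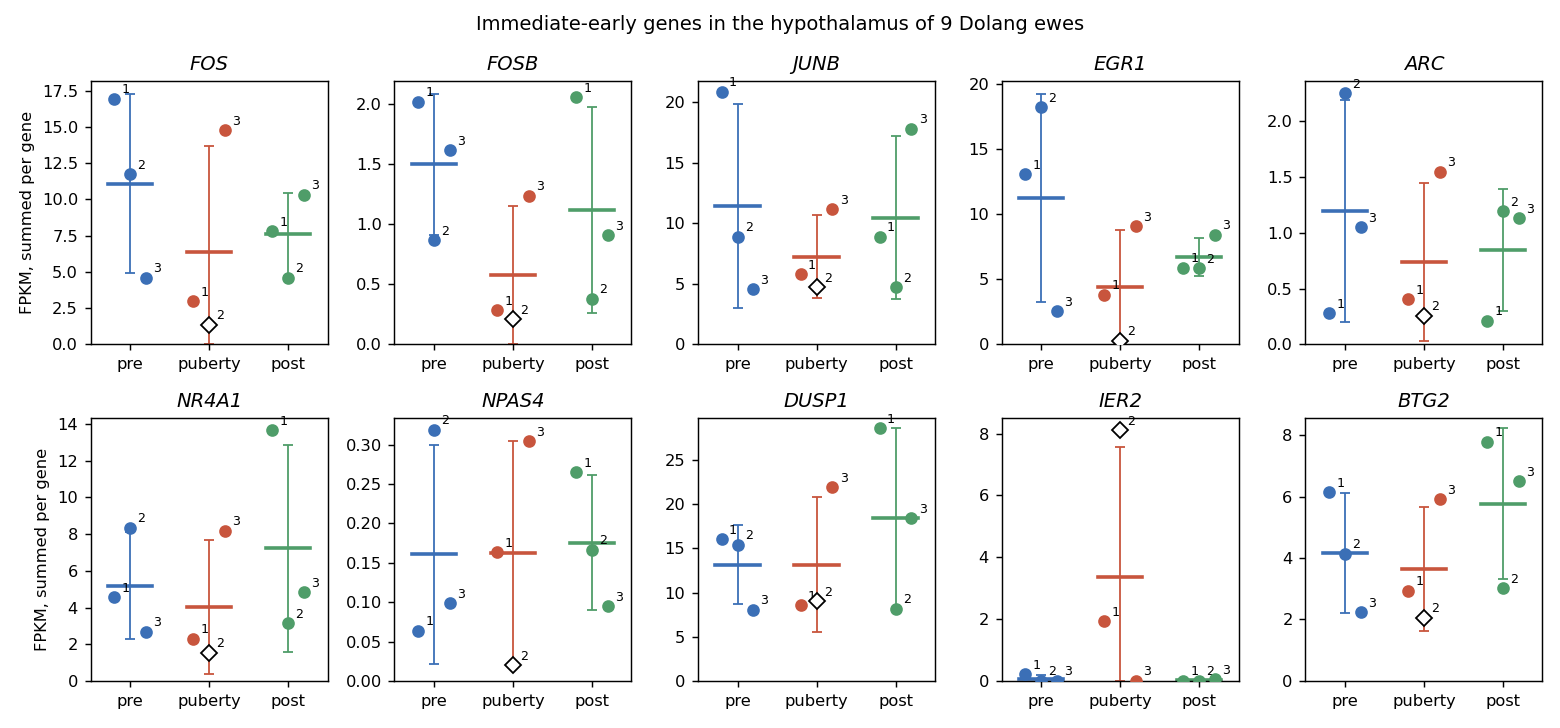
FPKM of each of the 10 members (one panel per gene, linear axis from 0) in the 9 ewes, by stage; points are libraries with their replicate number, the open diamond is Puberty 2, thick bars are stage means and thin bars ± 1 SD (n = 3), cut at 0. Every panel shows overlap between stages, for example FOS from 4.59 to 17.0 FPKM at prepuberty and from 1.36 to 14.8 at puberty.

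FOS, FOSB and JUNB are subunits of AP-1, the dimeric transcription factor in which a Fos protein pairs with a Jun protein. FOS lies on chromosome 7 at 84571490 to 84574889 of the assembly ARS-UI_Ramb_v3.0. Its level was 17.0, 11.7 and 4.59 FPKM in Prepuberty 1, 2 and 3, then 2.95, 1.36 and 14.8 in Puberty 1, 2 and 3, and 7.81, 4.60 and 10.3 in Postpuberty 1, 2 and 3. Each stage thus held ewes with a high and ewes with a low FOS level, and the pubertal ewes spanned nearly the whole range. The means were 11.1 ± 6.21 FPKM at prepuberty, 6.36 ± 7.32 at puberty and 7.58 ± 2.86 at postpuberty (SD, n = 3). Without Puberty 2 the pubertal mean was 8.86 FPKM, above that of postpuberty.

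JUNB, a Jun partner that restrains growth-promoting AP-1 dimers, lies on chromosome 5 at 11038097 to 11039921. It was measured at 20.9, 8.88 and 4.56 FPKM at prepuberty, 5.80, 4.71 and 11.1 at puberty and 8.89, 4.70 and 17.8 at postpuberty, in replicate order. Prepuberty 1 was the highest library and Prepuberty 3 the lowest, so the extremes of JUNB both came from prepubertal ewes.

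FOSB, the Fos subunit whose protein can persist after repeated stimulation, lies on chromosome 14 at 52861368 to 52868302 and has 2 coding transcript models. Summed over both, it stood at 2.02, 0.864 and 1.62 FPKM at prepuberty, 0.282, 0.208 and 1.24 at puberty and 2.06, 0.379 and 0.908 at postpuberty. The pubertal ewes 1 and 2 were the lowest of all, and Puberty 3 was above Prepuberty 2, Postpuberty 2 and Postpuberty 3. The split between the models differed between ewes: the second model carried 1.29 FPKM of the 1.62 in Prepuberty 3 and 0 of the 0.379 in Postpuberty 2. How far the quantification can separate the 2 overlapping models was not tested.

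EGR1, a zinc finger factor induced by the MAP kinase pathway that pituitary and brain cells use to pass on hormone and activity signals, lies on chromosome 5 at 47499104 to 47501425. It was measured at 13.1, 18.2 and 2.52 FPKM at prepuberty, 3.79, 0.266 and 9.06 at puberty and 5.89, 5.82 and 8.42 at postpuberty. Prepuberty 1 and 2 were the 2 highest libraries, yet the third prepubertal ewe was below every postpubertal ewe. Puberty 2 was far below every other library. The postpubertal ewes were close to each other (6.71 ± 1.48 FPKM), whereas the prepubertal ewes were not (11.3 ± 8.01).

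NR4A1, an orphan nuclear receptor that works without a classical ligand, lies on chromosome 3 at 134284459 to 134311433 and has 6 coding models. The sum was 4.55, 8.36 and 2.69 FPKM at prepuberty, 2.29, 1.54 and 8.20 at puberty and 13.7, 3.13 and 4.85 at postpuberty. Postpuberty 1 was highest, followed by Prepuberty 2 and Puberty 3, so the 3 highest libraries came from 3 different stages. The main model made up 74.7% of the mean, and in Puberty 2 it was listed at 0, the 1.54 FPKM there coming almost wholly from a model (1.50 FPKM) that was at most 0.716 elsewhere.

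NPAS4, a factor that is induced nearly only by calcium entry in neurons, lies on chromosome 21 at 40881996 to 40899207. It was at 0.0640, 0.319 and 0.0984 FPKM at prepuberty, 0.163, 0.0202 and 0.304 at puberty and 0.265, 0.167 and 0.0951 at postpuberty. It was above 0 in all 9 libraries but reached 0.5 FPKM in none, and the stage means of 0.160, 0.163 and 0.176 were almost equal. Without Puberty 2 the pubertal mean was 0.234 FPKM, the highest of the 3. Read counts were not recovered from the FPKM values, and the counting error behind these low levels was not estimated.

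ARC, the synaptic protein that drives removal of glutamate receptors from active synapses, lies on chromosome 9 at 14676910 to 14680304. Its level was 0.278, 2.25 and 1.05 FPKM at prepuberty, 0.405, 0.255 and 1.55 at puberty and 0.212, 1.19 and 1.13 at postpuberty. The 3 lowest libraries were Postpuberty 1, Puberty 2 and Prepuberty 1, although Postpuberty 1 was the highest library for NR4A1, DUSP1, BTG2 and FOSB and Prepuberty 1 for FOS and JUNB. The same 3 libraries had the lowest summed neuron markers, whose part in the ARC level was not tested.

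DUSP1, the phosphatase that switches off the MAP kinases which induce this gene set, lies on chromosome 16 at 4709600 to 4712692. It was measured at 16.0, 15.4 and 8.06 FPKM at prepuberty, 8.54, 9.04 and 21.9 at puberty and 28.6, 8.19 and 18.4 at postpuberty. The 9 values formed a lower set of 4 libraries from 8.06 to 9.04 FPKM and an upper set of 5 from 15.4 to 28.6, and every stage had ewes in both. BTG2, an antiproliferative protein that speeds mRNA decay, lies on chromosome 12 at 883320 to 887438 and had the same 5 libraries above the other 4, at 6.14, 4.15 and 2.23, then 2.93, 2.06 and 5.91, then 7.79, 3.02 and 6.50 FPKM.

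IER2, a nuclear immediate-early protein, lies on chromosome 5 at 10703500 to 10739765. It was listed at 0.223, 0 and 0 FPKM at prepuberty, 1.93, 8.11 and 0 at puberty and 0, 0 and 0.0543 at postpuberty. Only Puberty 1 and Puberty 2, the ewes with the lowest FOS and FOSB, exceeded 0.5 FPKM. The annotation gives this gene 15 coding models, of which 6 were at 0 in every library, and 9 noncoding models, left out here, which summed to 0.560 to 5.72 FPKM, highest in Puberty 2 as well, and exceeded the coding sum in 7 of the 9 libraries. How reads were divided among these models was not tested, and no fold is given against a level listed at 0.

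None of the 10 members separated the stages. All 10 overlapped in each of the 3 comparisons, both with and without Puberty 2, where 5.16% of the 14238 genes tested did not overlap between prepuberty and puberty, 7.32% between puberty and postpuberty and 4.57% between prepuberty and postpuberty (11.7%, 14.1% and 4.53% of 14209 genes without Puberty 2). The smallest two-sided exact permutation p of a member was 0.2 between prepuberty and puberty, 0.2 between puberty and postpuberty and 0.5 between prepuberty and postpuberty, where 3 ewes against 3 cannot give less than 0.1. With limma on log2(FPKM + 1), 0 of the 14238 genes passed an absolute log2 fold change of 1 with a Benjamini-Hochberg adjusted p below 0.05 (0% in each comparison), and 259 (1.82%), 305 (2.14%) and 116 (0.815%) had an unadjusted p below 0.05, in the order above. Without Puberty 2, limma again called 0 genes in each, with 1.66%, 2.11% and 1.87% at an unadjusted p below 0.05. The F test over the 3 stages called 0 genes as well, with 174 (1.22%) at an unadjusted p below 0.05, and 0 without Puberty 2, with 1.63%. The limma p-values set each difference against the spread between ewes of 1 stage. With 1 library per ewe, differences between animals, dissections and library preparations cannot be told apart in that spread.

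Between prepuberty and puberty the largest differences of the 8 tested members were those of EGR1, higher at prepuberty by 1.32 ± 0.80 on the log2(FPKM + 1) scale (SE), and FOS, higher by 1.04 ± 0.70. Their adjusted p was 0.84 in both cases (limma with Benjamini-Hochberg adjustment over 14238 genes), and 2 of 3 prepubertal ewes exceeded the pubertal mean. FOSB was higher at prepuberty by 0.70 ± 0.37. JUNB (0.45 ± 0.58), NR4A1 (0.44 ± 0.62), ARC (0.31 ± 0.42), BTG2 (0.17 ± 0.45) and DUSP1 (0.07 ± 0.51) differed by less than their SE. IER2, with 5 of the 9 libraries listed at 0, had a log2 difference of -1.48 ± 0.63, and of -0.68 ± 0.40 without Puberty 2. Since it passed the filter only through pubertal ewes, no p is given for it.

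All of the 8 tested members, a set formed after the values were seen, had a positive difference between prepuberty and puberty. Their median was 0.44, in a fit in which 63.2% of all genes were positive and the median gene was at 0.14. Over all 10 members the median was 0.37, and the members outside the set, IER2 (-1.48) and NPAS4 (-0.002), were negative. With sample weights 6 of the 8 turned negative (FOS -0.061, JUNB -0.41, EGR1 -0.53, NR4A1 -0.28, DUSP1 -0.45 and BTG2 -0.47), and leaving out 1 library turned JUNB, ARC, DUSP1 or BTG2. Without Puberty 2, 6 of the 8 were positive, the median was 0.17 and the median gene was at -0.02, with 44.7% positive. EGR1 then stood at 0.50 ± 0.69 and FOS at 0.46 ± 0.69, while DUSP1 (-0.12 ± 0.57) and BTG2 (-0.09 ± 0.46) turned negative. NR4A1 moved from 0.44 to 0.07, JUNB to 0.23 ± 0.67 and ARC to 0.11 ± 0.47, so that all but FOSB (0.53 ± 0.40) moved by more than 1.5 times or changed sign, and none of these was a call.

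Between puberty and postpuberty, all 8 had a negative difference with all 9 libraries, median -0.49, against a median gene at -0.19 and 32.3% positive. Over all 10 members the median was -0.41, and 1 of them, IER2, was positive. The lowest were EGR1 at -0.95 ± 0.80, NR4A1 at -0.74 ± 0.62, FOS at -0.64 ± 0.70 and BTG2 at -0.56 ± 0.45. IER2 was at 1.55 ± 0.63, and at 0.75 ± 0.40 without Puberty 2, again with no p. Without Puberty 2 the median was -0.20, against a median gene at -0.03 and 44.9% positive, 7 of the 8 were negative, and ARC moved to 0.09 ± 0.47. EGR1 was then at -0.13 ± 0.69, NR4A1 at -0.36 ± 0.67, FOS at -0.06 ± 0.69 and BTG2 at -0.30 ± 0.46, and the other 3 also moved by more than 1.5 times. The comparisons share the pubertal ewes, so their opposite signs are 1 observation and not 2.

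Between prepuberty and postpuberty, which leaves the pubertal ewes out, 5 of the 8 were positive and the median was 0.13, with the median gene at -0.05 and 37.8% of genes positive. FOS (0.40 ± 0.70), EGR1 (0.37 ± 0.80) and FOSB (0.29 ± 0.37) were positive, and BTG2 (-0.39 ± 0.45), DUSP1 (-0.35 ± 0.51) and NR4A1 (-0.30 ± 0.62) negative, each within its SE. Leaving out 1 library moved FOS between 0.03 and 0.88, FOSB between 0.02 and 0.60 and BTG2 between -0.72 and -0.08, and turned EGR1, DUSP1 and NR4A1. Sample weights turned FOS to -0.44 and EGR1 to -0.88, as well as JUNB to -0.83, and taking the highest transcript of each gene turned FOSB to -0.085. The order of the stage means reflected this. With all libraries, puberty was the lowest stage for 7 of the 10 members, whereas without Puberty 2 it was the lowest for 3 (FOSB, JUNB and EGR1), prepuberty for 4 and postpuberty for 3. Prepuberty was the highest stage for FOS, FOSB, JUNB, EGR1 and ARC in both cases, and postpuberty for NR4A1, DUSP1 and BTG2.

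**Figure D2:**
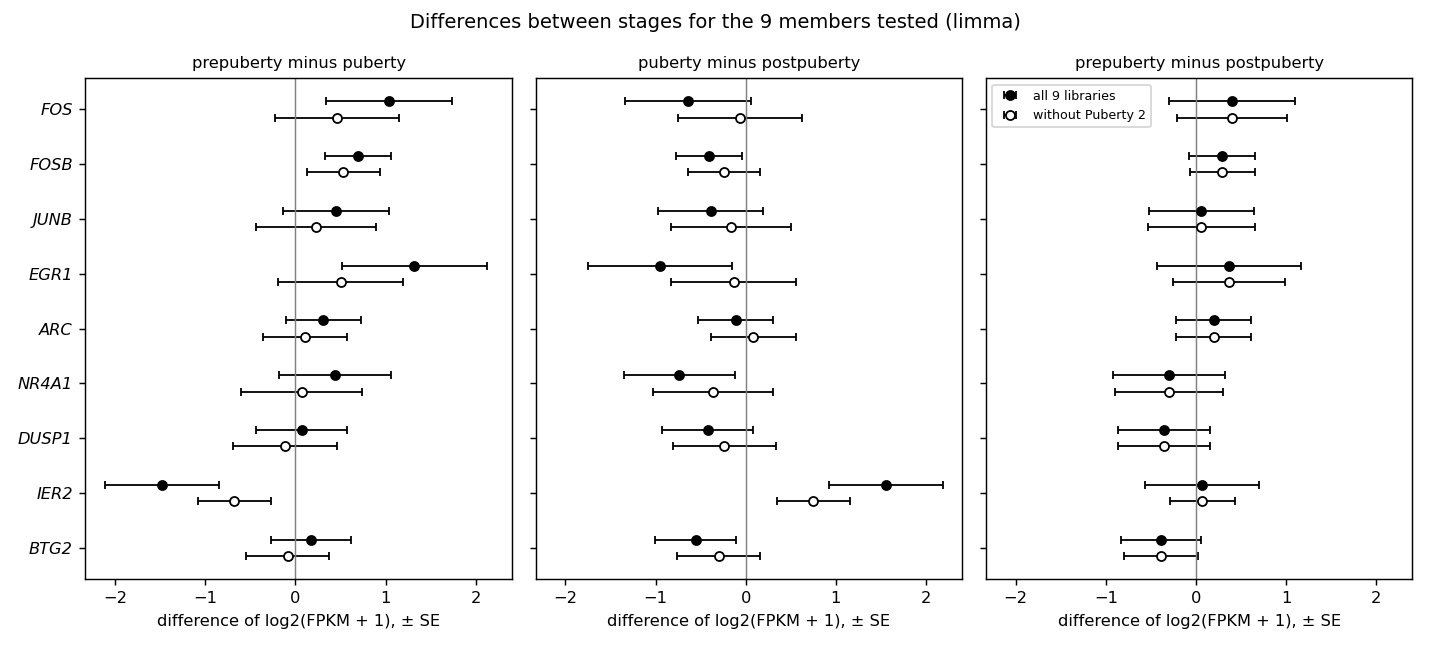
Differences of mean log2(FPKM + 1) between stages (horizontal axis, with SE from limma) for the 9 members tested, with all 9 libraries (filled) and without Puberty 2 (open). The filled points of 8 members lie right of 0 for prepuberty minus puberty (EGR1 at 1.32, DUSP1 at 0.07), and that of IER2 lies left of 0 (-1.48). The open points of these 8 lie further left (EGR1 at 0.50), those of DUSP1 (-0.12) and BTG2 (-0.09) left of 0.

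Across libraries, the median correlation between members lay above that between all genes tested. Over all 45 pairs of the 10 members the median Pearson r of log2(FPKM + 1) was 0.52 with 9 libraries, against 0.126 over all pairs of genes tested, and 0.38 without Puberty 2, against 0.036. After quantile normalization the 45 pairs had a median of 0.22, against 0.001 over all pairs of genes. Of the 45 pairs, 24 reached an r of at least 0.5 with 9 libraries, where 27.4% of all gene pairs did, and 19 without Puberty 2, where 16.9% did. Subtracting stage means left their medians at 0.52 and 0.44, so the agreement was also present among ewes of the same stage. Over the 28 pairs of the 8 tested members, a set formed after the values were seen, the medians were 0.66 and 0.54, or 0.67 and 0.64 with stage means subtracted, and 20 and 18 pairs reached 0.5. Pairs of members are not independent of each other, and these medians are descriptions.

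The closest pair was DUSP1 and BTG2, with r = 0.94 (permutation p = 0.0013) and rho = 0.83 (permutation p = 0.0083) over 9 libraries. Without Puberty 2 it was r = 0.95 (permutation p = 0.00060, adjusted p = 0.027 over 45 pairs) and rho = 0.90 (permutation p = 0.0046), and without the 2 libraries farthest from the DUSP1 median r was 0.92. FOS and EGR1 followed with r = 0.90 (permutation p = 0.00069) and rho = 0.93 (permutation p = 0.00075) over 9 libraries, and r = 0.83 (permutation p = 0.012) without Puberty 2. NR4A1 and DUSP1 had r = 0.90 (permutation p = 0.0011, rho = 0.75, permutation p = 0.025) and r = 0.91 (permutation p = 0.0036) without Puberty 2. After Benjamini-Hochberg adjustment over the 45 pairs, these 3 pairs passed 0.05 with 9 libraries (permutation adjusted p = 0.020 each). Only DUSP1 and BTG2 passed without Puberty 2. With stage means subtracted none passed (smallest permutation adjusted p = 0.17), but that test could hardly pass a pair, since it has only 216 orders. FOS and JUNB had the smallest permutation p that these orders allow (0.0046), and their adjusted p was still 0.17. No conclusion is drawn from the test with stage means subtracted. By rho, only FOS and EGR1 passed with 9 libraries (permutation adjusted p = 0.034, against 0.12 for DUSP1 and BTG2 and 0.13 for NR4A1 and DUSP1), and without Puberty 2 none of the 3 pairs did (permutation adjusted p = 0.10 for DUSP1 and BTG2). Leaving out the 2 farthest libraries, r stayed at 0.81 for FOS and EGR1, 0.86 for NR4A1 and DUSP1 and 0.90 for DUSP1 and BTG2.

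**Figure D3:**
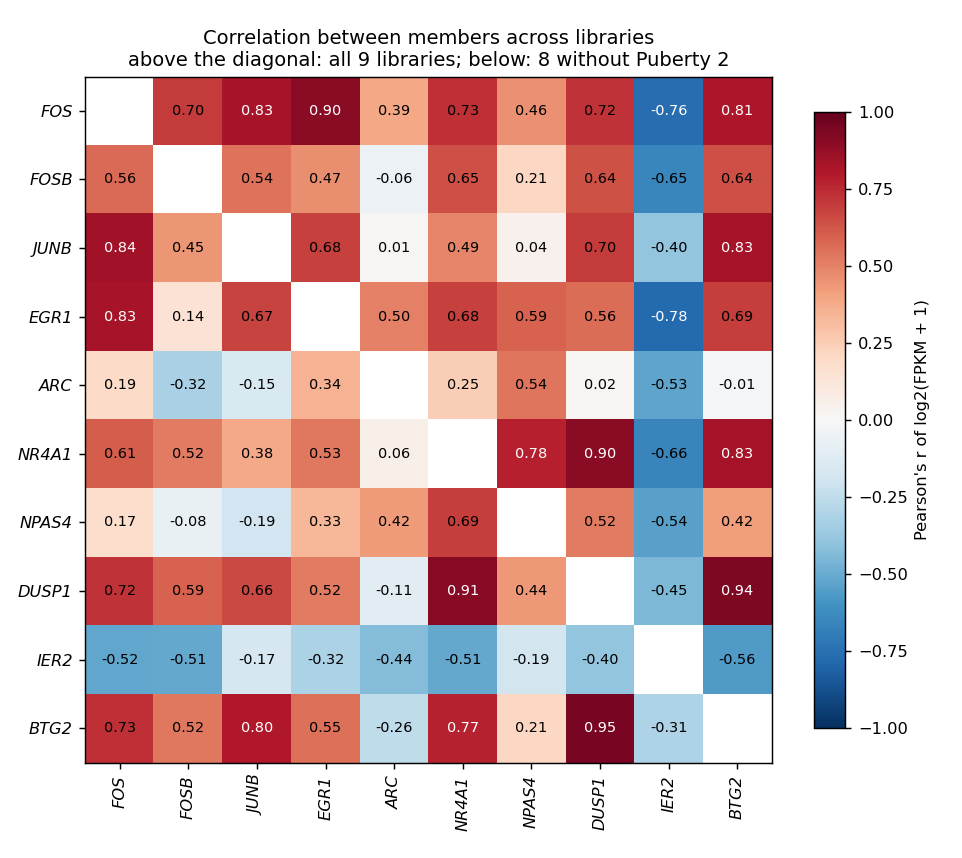
Pearson r of log2(FPKM + 1) between the 10 members, above the diagonal over all 9 libraries and below it over the 8 without Puberty 2 (colour scale from -1 to 1, value in each cell). DUSP1 and BTG2 (0.94 and 0.95) are the closest pair, ARC is near 0 with JUNB, DUSP1 and BTG2 over 9 libraries, and the r of IER2 is negative with every other member, although its rank correlation with JUNB is positive (rho = 0.15 over 9 libraries) and its r with FOS is 0.57 without Puberty 1 and Puberty 2.

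Most members were high in the same ewes. FOS, JUNB, EGR1, NR4A1, DUSP1 and BTG2 had the same 5 highest libraries, namely Prepuberty 1, Prepuberty 2, Puberty 3, Postpuberty 1 and Postpuberty 3. The margin was wide for DUSP1, whose lowest value among these 5 was 15.4 FPKM and whose highest among the other 4 was 9.04, and for FOS (7.81 and 4.60), and narrow for EGR1 (5.89 and 5.82). Of all genes tested, 507 (3.56%) had the same 5 highest libraries, which made this the fourth most frequent of the 126 possible sets, so the set is not particular to the members. It was looked for after the values were seen and was not tested. FOSB differed from it in 1 library, with Prepuberty 3 in place of Prepuberty 2.

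ARC and NPAS4, the members most restricted to neurons, each had a different set of 5 highest libraries, as did FOSB and IER2. Both were low: ARC reached 0.5 FPKM in 5 libraries and NPAS4 in none. The part of these low levels in their order across libraries was not tested. Without Puberty 2, the r of FOS with the mean of the others of the 8 tested members was 0.91, that of DUSP1 0.85, BTG2 0.82, NR4A1 0.75, JUNB 0.72, EGR1 0.71, FOSB 0.46, NPAS4 0.34, ARC -0.04 and IER2 -0.54. With all 9 libraries, FOSB had 0.63, NPAS4 0.56, ARC 0.18 and IER2 -0.76, and differences between these r values were not tested. ARC and NPAS4 had r = 0.54 with each other over 9 libraries (permutation p = 0.13, rho = 0.58). With NR4A1, NPAS4 had r = 0.78 (permutation p = 0.017, adjusted p = 0.083 over 45 pairs, rho = 0.68) and 0.69 without Puberty 2 (permutation p = 0.063).

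Markers of other cell types were set beside the members over the 8 libraries without Puberty 2, in 110 relations of 10 members with 11 marker lists. Each list was measured by the mean z score of log2(FPKM + 1) of its markers, which weights them equally, and not by their summed FPKM. None of the relations passed Benjamini-Hochberg adjustment (smallest permutation adjusted p = 0.33). ARC was positive with neuron markers (r = 0.73, permutation p = 0.046, rho = 0.74) and negative with oligodendrocyte (r = -0.81, permutation p = 0.013, rho = -0.83) and astrocyte markers (r = -0.75, permutation p = 0.048, rho = -0.74). The neuron relation dropped to r = 0.15 without the 2 farthest libraries and therefore rests on them. FOSB was negative with neuron markers (r = -0.83, permutation p = 0.013, rho = -0.81) and positive with endothelial (r = 0.80, permutation p = 0.018, rho = 0.88), mural (r = 0.77, permutation p = 0.026, rho = 0.86) and microglial markers (r = 0.74, permutation p = 0.035, rho = 0.79). DUSP1 and BTG2 were positive with markers of mural cells and fibroblasts (r = 0.83, permutation p = 0.013, rho = 0.76, and r = 0.80, permutation p = 0.016, rho = 0.71), and so was NR4A1 (r = 0.71, permutation p = 0.048, rho = 0.45). JUNB was positive with those of microglia and macrophages (r = 0.82, permutation p = 0.014, rho = 0.71), and NPAS4 with those of hypothalamic neurons (r = 0.67, permutation p = 0.029, rho = 0.64), whereas NPAS4 was negative with blood markers (r = -0.77, permutation p = 0.035, rho = -0.86). Without the 2 farthest libraries, r was -0.45 and -0.82 for ARC with oligodendrocytes and astrocytes, -0.63, 0.99, 0.56 and 0.50 for FOSB with neurons, endothelium, mural cells and microglia, 0.75, 0.67 and 0.50 for DUSP1, BTG2 and NR4A1 with mural cells, 0.59 for JUNB with microglia, and 0.38 and -0.58 for NPAS4 with hypothalamic neurons and blood. With Puberty 2 included, r was -0.26 for FOSB with neurons and -0.22 for ARC with astrocytes, and the other relations named had the same sign with absolute values from 0.56 to 0.91. The 9 mural and fibroblast markers summed to 103 to 741 FPKM in the 8 libraries, highest in Postpuberty 1, where DUSP1, BTG2, NR4A1 and FOSB were also highest. The part of cell composition in the member levels was not tested.

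Ewes of 1 stage differed widely in most of these genes. The SD within stages of the 8 tested members, a set formed after the values were seen, lay at percentiles from 54.8 (FOSB) to 95.7 (EGR1) among all genes tested, with a median of 81.8, and the median was 92.3 without Puberty 2. EGR1 (percentile 95.7) and FOS (percentile 92.3) were the most variable with all libraries. Without Puberty 2, EGR1 (94.8), FOS (94.5), JUNB (94.0), NR4A1 (94.0) and DUSP1 (90.7) were all above the 90th percentile, and FOSB (77.5) was the lowest of the 8. The SD of FOS was then 3.57 times the SD that the limma trend gives at its level, and that of FOSB 1.78 times. In plain units, and over all stages together, the highest of the 8 libraries exceeded the lowest 5.74-fold for FOS, 7.24-fold for EGR1, 10.6-fold for ARC and 3.50-fold for BTG2.

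**Figure D4:**
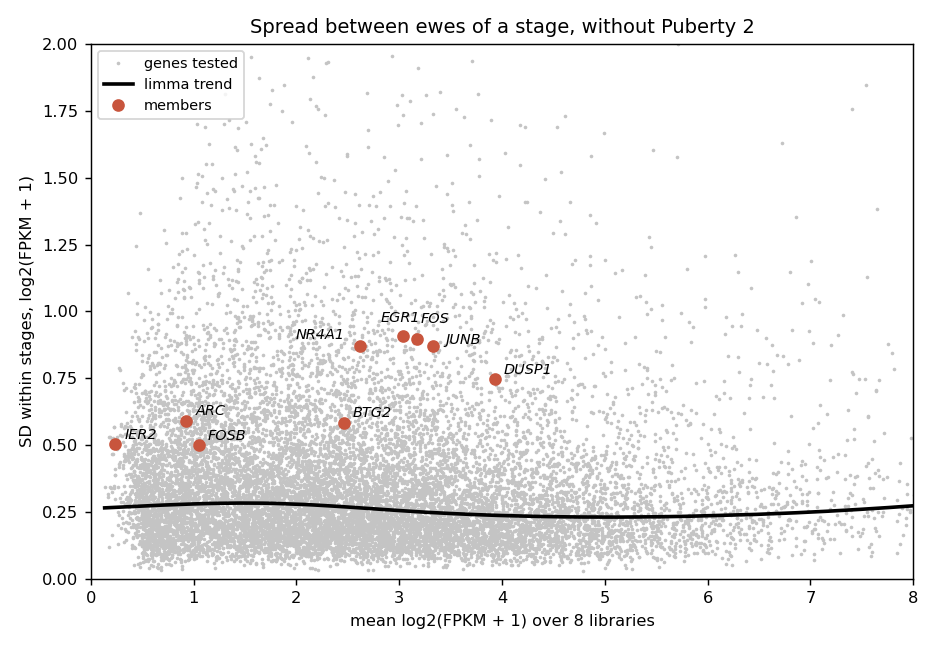
Within-stage SD of log2(FPKM + 1) against its mean for the 14209 genes tested without Puberty 2 (grey; 150 genes lie outside the axes), with the limma trend (line) and the 9 members tested (red). All 9 lie above the line, EGR1, FOS, JUNB and NR4A1 furthest, at SDs of 0.91, 0.90, 0.87 and 0.87.

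Other genes of the response were described from 9 lists, and 0 genes of any list were called in any comparison. The r of each gene with the mean of the 8 tested members was taken over the 8 libraries without Puberty 2, where the median gene had 0.18. Of 12 other AP-1 subunits, 10 were positive and the median was 0.55. JUND, a Jun subunit, was at 52.0, 53.1 and 47.0 FPKM at prepuberty, 1.70, 1.45 and 59.7 at puberty and 17.9, 4.92 and 50.3 at postpuberty, with r = 0.74 (permutation p = 0.022, rho = 0.86). FOSL1 went the other way (r = -0.66), at 17.2 to 28.8 FPKM in the 8 libraries and 126 in Puberty 2. It had the highest mean of the list only through Puberty 2, without which its mean was 22.6 FPKM, against 35.8 for JUND and 30.4 for JUN. ATF3 was at 4.03, 1.29 and 2.26, then 0.765, 0.848 and 1.93, then 5.01, 1.49 and 3.21 FPKM (r = 0.59), and MAFG, with the smallest unadjusted F p of the list (0.033, adjusted 0.99 by limma and Benjamini-Hochberg), showed r = -0.06.

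All 6 tested EGR and NR4A relatives were positive (median 0.54), among them NAB2, the corepressor that EGR1 induces against itself (r = 0.62), EGR3 (0.72) and NR4A2 (0.41). Of 34 other rapid primary response genes, 33 were positive and 23 reached 0.5, with a median of 0.63, where 21.5% of all 14229 genes other than the members reached 0.5. NFKBIA, the inhibitor of NF-kB and the highest of that list, was at 64.2, 27.5 and 53.3 FPKM at prepuberty, 24.9, 17.2 and 40.2 at puberty and 49.7, 46.2 and 27.1 at postpuberty, with r = 0.11. TRIB1 (0.24), BHLHE40 (0.53) and CCN1 (0.67) had the smallest F p of the list, 0.029, 0.089 and 0.11 before adjustment (limma adjusted p = 0.99 each after Benjamini-Hochberg). Transcription factors and coregulators upstream of the members were positive in 17 of 20 cases with a median of 0.57, including CREBBP (0.72), the deacetylase HDAC5 (0.61, but -0.46 with all 9 libraries) and ATF1 (0.26). With all 9 libraries the median gene was at 0.39. The list medians were then 0.65 for AP-1 subunits, 0.67 for EGR and NR4A relatives, 0.62 for rapid primary response genes and 0.73 for upstream factors. Differences between lists were not tested.

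Over the 8 libraries, the lists of signalling and later genes lay near the median gene. The upstream kinases had a median of 0.12 (15 of 23 positive), with MAPK3, the highest of them, at -0.59, CAMKK2 at 0.43 and RPS6KA4 at -0.07. MAP kinase phosphatases and inhibitors had a median of 0.17 (11 of 17 positive), with DUSP7 at 0.58, DUSP10 at 0.16 and SPRED2 at -0.05. Activity-regulated effectors that follow the first wave had 0.24 (16 of 24 positive). Among them SCG2, a secretory granule protein at 18.8 to 184 FPKM in the 8 libraries and 10.1 in Puberty 2, had -0.11, PLK2 0.25, INHBA 0.06 and LINGO1 -0.08. With all 9 libraries these medians were higher, at 0.55 for the kinases, 0.51 for the phosphatases and inhibitors and 0.58 for the effectors, against 0.39 for the median gene.

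The stress lists lay below the median gene. Glucocorticoid-responsive genes had a median of -0.07 (4 of 11 positive), with TSC22D3 at -0.30, FKBP5 at -0.32, SGK1 at -0.27, NFKBIA at 0.11 and CDKN1A highest at 0.80. Heat-shock and cell stress genes had a median of -0.01 (6 of 13 positive), with HSP90AA1 at -0.36, DNAJA1 at -0.46, HSPA5 at -0.01, HSPA6 at 0.36, ATF4 at 0.52 and XBP1 highest at 0.69. Over the 157 listed genes, none passed Benjamini-Hochberg adjustment for its r with the members (smallest permutation adjusted p = 0.14, for CREM, a factor of the CREB family, with r = 0.89, permutation p = 0.00089 and rho = 0.86). With all 9 libraries the glucocorticoid and heat-shock medians were 0.26 and 0.32.

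**Figure D5:**
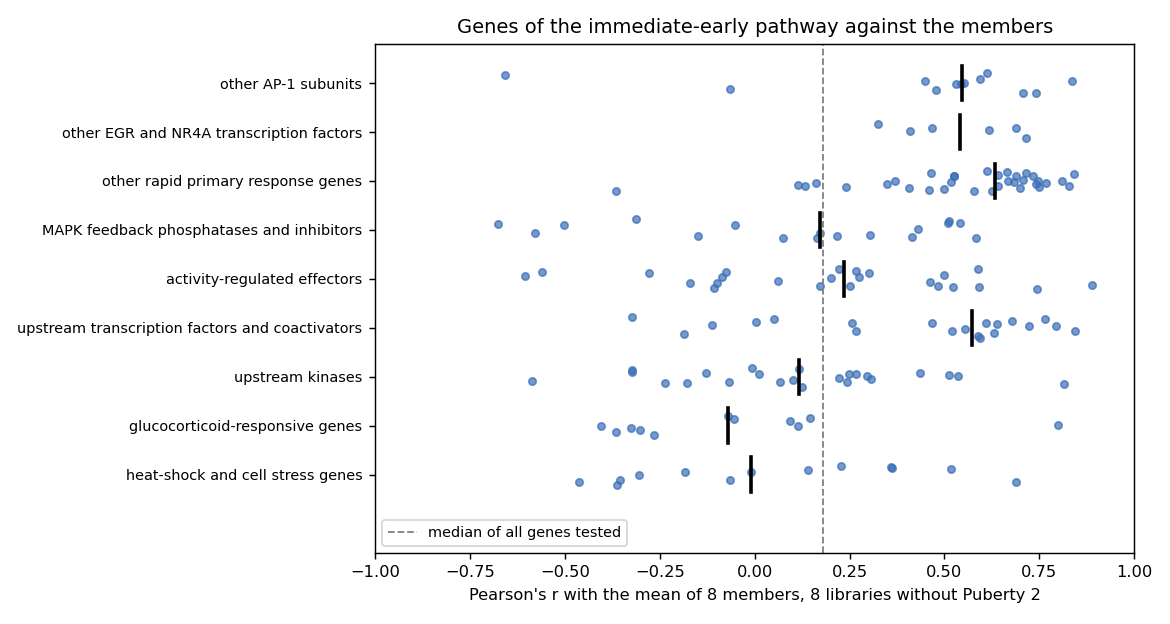
Pearson r of each listed gene (point) with the mean z score of the 8 tested members, over 8 libraries without Puberty 2, by list; black bars are list medians and the dashed line is the median of all genes tested (0.18). Other rapid primary response genes (0.63), upstream transcription factors (0.57), AP-1 subunits (0.55) and EGR and NR4A relatives (0.54) lie to the right, and glucocorticoid-responsive (-0.07) and heat-shock genes (-0.01) to the left.

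The genes most like the members over the 8 libraries were none of the listed ones. Of 14229 genes, 38 (0.267%) had an r of at least 0.9 with the mean of the 8 members. The 12 highest were SERTAD1 (0.99), the uncharacterised coding gene LOC101116863 (0.99), FBXL17, DYRK2, FEM1A and DDX3X (0.97 each), DTX1, ERGIC1 and DR1 (0.96 each), TMEM131 (0.95), TM9SF2 and PEX13 (0.94 each). LOC101116863, on chromosome 16, was at 65.7, 37.4 and 0.929 FPKM at prepuberty, 0.581, 5.47 and 59.1 at puberty and 58.6, 0.710 and 57.6 at postpuberty, so it stayed below 1 FPKM in Prepuberty 3, Puberty 1 and Postpuberty 2, the ewes in which FOS, NR4A1 and BTG2 were also low. SERTAD1, a nuclear regulator of cell cycle transcription, had the opposite relation once Puberty 2 was included (r = -0.25), where it reached 19.7 FPKM against 5.67 to 8.46 elsewhere. FBXL17, a subunit of ubiquitin ligases, kept r = 0.95 with all 9 libraries. These genes were picked for their r, so no p is given.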

How the data were processed

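Hypothalamus RNA (poly-A selected, paired-end) of 9 ewes was sequenced by the authors, who trimmed reads with Trimmomatic, aligned them with HISAT2 and quantified transcripts with StringTie. The deposited values are FPKM for 115108 transcripts, although described as counts, and they are not whole numbers. The count test of the authors could therefore not be used, and limma took its place. Of 76684 coding RefSeq transcripts, 76682 matched a gene of ARS-UI_Ramb_v3.0, and FPKM was summed over each gene. Stages were taken from the labels, which name no batch, and each library is a separate ewe.

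Genes with a mean of at least 0.5 FPKM in 1 or more stages (14238) were fitted as log2(FPKM + 1) with a variance trend (R 4.3.3, limma 3.58.1), all 9 libraries in 1 fit, and p-values were adjusted after Benjamini and Hochberg over all of them. Calls needed an absolute log2 fold change of 1 and an adjusted p below 0.05. The script was tested on simulated data. Correlation p-values came from all 362880 orders of 9 libraries, 40320 of 8, or 216 within stages, two-sided (Python 3.11.15, numpy 2.4.6, scipy 1.17.1). A pair of members was recomputed without the 2 libraries farthest from the median of the member listed first. For a member and a marker list, the 2 libraries farthest from the median of the marker score were left out.

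The 10 members, the 9 pathway lists and the 11 marker lists were chosen with earlier results of these data known. Named genes are the members, in each list the gene with the highest mean and the 3 with the smallest unadjusted F p, and the 12 genes most like the members. Some genes that this rule selects are not reported here. CREM, JUN, CDKN1A, ATF4 and XBP1 were named after their values were seen. Precision was set by the spread between ewes, and since FPKM values carry no read counts, counting error was not estimated. The planned description of promoter motifs was not run, since no promoter sequences were used here. The alternatives covered the pseudocount, the filter, scaling, sample weights, the replicate block, the transcripts summed and each library left out.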

Additional observations from a re-analysis of the deposited data

How the results depend on the processing

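No member was called under any alternative (smallest limma adjusted p 0.41 after Benjamini-Hochberg), and of 270 member differences recomputed under settings other than leaving out a library, 255 kept their direction. With sample weights, which gave Prepuberty 3 a weight of 8.13 and Puberty 2 one of 0.0653, 4 genes, 1 gene and 0 genes were called in the comparisons of prepuberty with puberty, puberty with postpuberty and prepuberty with postpuberty, 3 by the F test, and none was a member. The same weights turned prepuberty versus puberty to -0.061 for FOS, -0.41 for JUNB, -0.53 for EGR1, -0.28 for NR4A1, -0.45 for DUSP1 and -0.47 for BTG2, and prepuberty versus postpuberty to -0.44 for FOS, -0.83 for JUNB, -0.88 for EGR1 and -0.013 for IER2; the cause was not tested. Quantile normalization turned DUSP1 (-0.026) and BTG2 (-0.070) between prepuberty and puberty and ARC (0.10) between puberty and postpuberty. The highest transcript per gene turned FOSB (-0.085), and noncoding transcripts turned IER2 (-0.17), both between prepuberty and postpuberty. The median gene between prepuberty and puberty lay at 0.14, at 0.28 after scaling to equal totals, 0.10 after upper-quartile scaling and -0.01 after quantile normalization.

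Leaving out each library in turn gave 0 calls in every comparison, and these differences changed sign: prepuberty versus puberty of JUNB (-0.070 to 0.92), ARC (-0.027 to 0.65), DUSP1 (-0.15 to 0.48) and BTG2 (-0.10 to 0.50), puberty versus postpuberty of JUNB (-0.81 to 0.053) and ARC (-0.43 to 0.086), and prepuberty versus postpuberty of JUNB (-0.46 to 0.53), EGR1 (-0.12 to 1.11), ARC (-0.14 to 0.54), NR4A1 (-0.69 to 0.23), DUSP1 (-0.82 to 0.028) and IER2 (-0.025 to 0.12). The median r of the 45 pairs, 0.52, ranged from 0.38 to 0.61 and was 0.22 after quantile normalization. The median percentile of the spread was 81.8 over the 8 tested members and ranged from 74.3 to 92.3. With IER2 it was 85.7, ranged from 72.2 to 90.7 and was 75.4 with a pseudocount of 0.1.

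Replicate numbers did not pair the ewes: the deviations of same-numbered libraries correlated from -0.32 to 0.52, with 2 of 9 pairs above 0.1. With the replicate block, limma again called 0 genes in each comparison, with 281, 327 and 103 at an unadjusted p below 0.05. The FPKM values carry no read counts, so counting error was not estimated here, and the differences of EGR1 and FOS did not pass the test against the spread between ewes.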
